A study of Homo sapiens with 12 samples.

Results

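Chemokine transcripts were followed in U937 cells after exposure to JS-K. The set was named as 9 genes: CXCL8, CXCL1, CXCL2, CXCL3, CXCL16, CCL2, CCL3, CCL4 and CCL20. A gene was measured by a probe set listed with its symbol alone, and where several existed the brightest on average across the 12 arrays was taken. By that rule 8 of the 9 genes were measured, among 19775 genes in all. CCL3 had only a probe set listed also with its copies CCL3L1 and CCL3L3, and that probe set is described separately under its own name.

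U937 is a human leukemia line of myeloid origin that grows in suspension, and JS-K is a prodrug that releases nitric oxide. There were 4 groups of 3 arrays each, from replicates that the labels call biological: cells with DMSO, the vehicle, and cells with JS-K that were taken after 90 min, after 4 h or after 24 h. Every group was the same line in RPMI medium with 10% serum, and all arrays came from total RNA. The dose of JS-K and the length of the vehicle exposure are not given in the sources used here, and a single vehicle group served all times. Time in culture and JS-K therefore cannot be told apart in any comparison with vehicle or between JS-K times. P-values reflect the spread among these arrays alone, and every array is of a single cell line.

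Chemokines are small secreted proteins that draw leukocytes along a gradient by binding G protein-coupled receptors. Their names give the spacing of the first conserved cysteines: in CXC chemokines a residue lies between them, and in CC chemokines they are adjacent. CXCL8, CXCL1, CXCL2 and CXCL3 attract neutrophils through CXCR2, while CCL2, CCL3 and CCL4 attract monocytes and lymphocytes through CC receptors. In monocytes and macrophages many of these genes are induced within minutes to hours by inflammatory signals, through the factors NF-kB and AP-1 at the promoter and through control of mRNA decay.

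CXCL8, CXCL1, CXCL2 and CXCL3 all lie on chromosome 4. Their promoters are shown because the probe sets of these related neutrophil chemokines gave very different values below, though such levels are not on a common scale. The letters are from RefSeq (GRCh38.p14), the 160 bases before each start, 5′ to 3′ on the gene's strand. CXCL8 is at chr4:73740409-73740568 on the plus strand and CXCL1 at chr4:73869233-73869392 on the plus strand. CXCL2 is at chr4:74099196-74099355 and CXCL3 at chr4:74038690-74038849, both on the minus strand. Capitals mark exact matches to the kB-like letters GGAATTTCC (GGAAATTCC on the other strand) and the AP-1-like letters TGANTCA, searched on both strands.
CXCL8: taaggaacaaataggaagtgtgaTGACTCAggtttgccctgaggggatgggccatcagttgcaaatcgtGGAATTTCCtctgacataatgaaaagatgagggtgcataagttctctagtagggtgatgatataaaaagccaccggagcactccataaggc
CXCL1: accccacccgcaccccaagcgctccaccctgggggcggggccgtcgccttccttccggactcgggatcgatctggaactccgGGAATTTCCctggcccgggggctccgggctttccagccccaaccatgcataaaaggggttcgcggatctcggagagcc
CXCL2: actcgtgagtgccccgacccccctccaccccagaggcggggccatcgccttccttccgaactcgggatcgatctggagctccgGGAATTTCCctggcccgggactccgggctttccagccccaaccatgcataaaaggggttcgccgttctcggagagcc
CXCL3: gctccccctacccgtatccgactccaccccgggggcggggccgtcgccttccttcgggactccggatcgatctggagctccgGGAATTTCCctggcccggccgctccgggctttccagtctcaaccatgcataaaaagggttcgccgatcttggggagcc
All 4 windows held the same 9 kB-like letters. They lay 91 to 83 bases before the start in CXCL8, 78 to 70 in CXCL1 and in CXCL3, and 77 to 69 in CXCL2. These letters occurred in 145 of 34943 promoter windows of 250 bases (0.415%). Only this exact word was searched, so other kB-like sequences were not counted. The share is thus no test of enrichment in these genes. Of these 4 genes CXCL8 alone also held TGACTCA, 137 to 131 bases before its start, and the AP-1-like letters occurred in 2303 of the 34943 windows (6.59%). The motifs did not overlap. Over these 160 bases CXCL1 and CXCL2 were identical at 85.6% of aligned positions, CXCL1 and CXCL3 at 85.4% and CXCL2 and CXCL3 at 82.1%, whereas identity to CXCL8 was 43.9% to 45.3%. A match is a description of letters, not a bound site or a cause. A promoter entry was found for 6 of the 9 genes, not for CXCL16, CCL2 and CCL4. In CCL3 and CCL20 neither set of letters was found, and other forms of these motifs were not searched.

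Values are log2 levels as deposited. On this scale 4 marks low signal: 51.7% of genes had a mean under 4, and the trp control probe sets, whose spike was left out, averaged 2.53 in vehicle and 2.66 at 4 h. Array medians lay between 2.84 and 2.99, except 3.10 for replicate 2 of the 4 h group, and arrays correlated at 0.993 to 0.998 within groups. The poly-A spikes, bacterial transcripts added before labelling, averaged 3.04 ± 0.05 in vehicle, 3.08 ± 0.06 at 90 min, 7.02 ± 0.15 at 4 h and 8.47 ± 0.05 at 24 h (SD, n = 3), so the 4 h and 24 h arrays differ from vehicle in this control too. For vehicle, 90 min, 4 h and 24 h the hybridization spikes had means of 9.96, 10.03, 10.21 and 11.70. The 3′ minus 5′ difference of ACTB, a sign of RNA quality and labelling, averaged 0.80, 0.83, 0.96 and 0.96, with 1.15 on 4 h replicate 2. Vehicle and 90 min are close in all of these controls, with poly-A spikes under 4 in both. Handling that differed along with the spikes cannot be told apart from time at 4 h and 24 h. The part of these controls in the results was not tested. Of 11 myeloid markers measured, 8 averaged at least 4 in every group, with MPO, CD14 and FCGR1A under 4 throughout. No T cell, B cell, erythroid or epithelial marker reached 4 in any group, and of 4 fibroblast markers COL1A1 did, at 5.09 to 5.37.

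**Figure D1:**
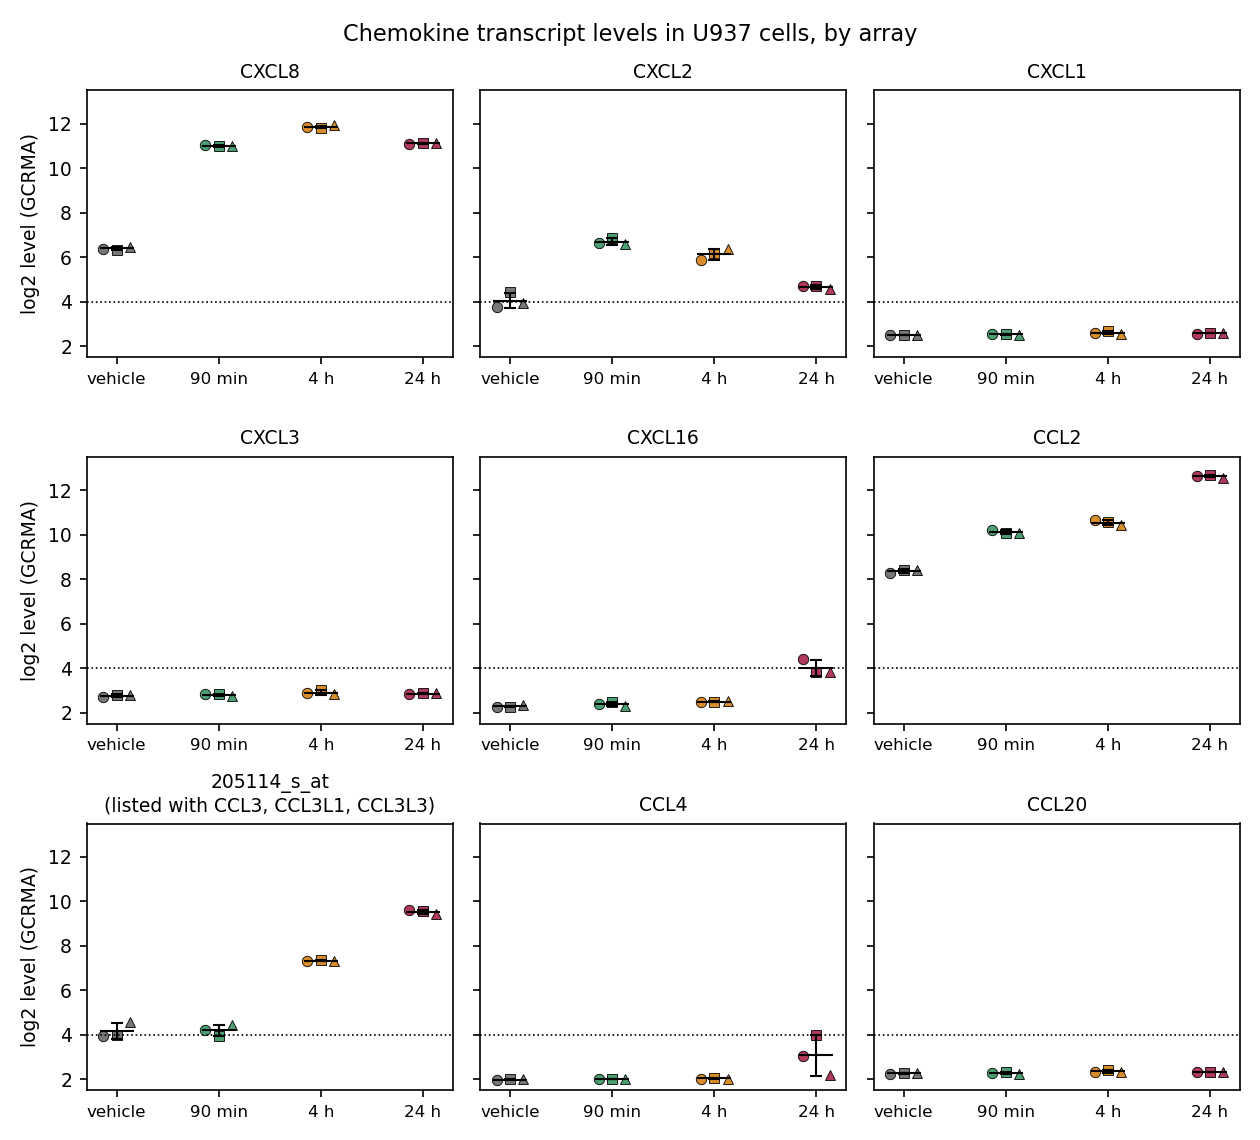
Log2 GCRMA level (vertical axis) of each chemokine on each of the 12 arrays, by group (horizontal axis). Circles, squares and triangles are replicates 1, 2 and 3, bars are mean ± SD (n = 3), and the dotted line marks a level of 4. CXCL8, CXCL2 and CCL2 are already well above vehicle at 90 min, CXCL16 comes near 4 at 24 h alone, and CXCL1, CXCL3 and CCL20 stay at 3.01 or less on every array.

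CXCL8, which encodes interleukin-8, was the chemokine with the largest rise. Its level was 6.38, 6.33 and 6.47 on the vehicle arrays and 11.06, 10.98 and 11.01 at 90 min. At 4 h it was 11.84, 11.82 and 11.93, and at 24 h 11.10, 11.15 and 11.12. No JS-K array came near the vehicle arrays, and the order of the group means was vehicle, 90 min, 24 h and 4 h. The log2 difference from vehicle was 4.62 ± 0.06 at 90 min (SE; 24.6-fold; adjusted p = 2.36e-13, limma), 5.47 ± 0.06 at 4 h (44.3-fold; adjusted p = 3.17e-14) and 4.73 ± 0.06 at 24 h (26.5-fold; adjusted p = 1.8e-13). In bulk RNA, a share of cells with much of a transcript and a smaller amount in every cell cannot be told apart.

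Most of the CXCL8 difference was present at 90 min. From 90 min to 4 h it rose by a further 0.85 ± 0.06 (1.80-fold; adjusted p = 5.09e-06), and from 4 h to 24 h it fell by 0.74 (1.67-fold; adjusted p = 1.39e-06). These steps did not pass a test against a 1.5-fold change (adjusted p = 0.0552 and 0.167). The 24 h and 90 min levels were the closest neighbours. All 3 arrays of 24 h lay above those of 90 min, but the log2 difference of 0.11 was not called (95% interval -0.02 to 0.23; adjusted p = 0.202). Quantile normalization put it at 0.17 (adjusted p = 0.0102). These CXCL8 values are of 202859_x_at, a probe set whose suffix marks probes that may match other transcripts. The second CXCL8 probe set, 211506_s_at, read 5.52, 4.92 and 5.28 in vehicle and between 10.35 and 11.71 on all JS-K arrays. Its differences from vehicle were larger, 5.28, 6.36 and 5.30 at 90 min, 4 h and 24 h, and it also peaked at 4 h.

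CXCL2, another neutrophil chemokine, followed a transient course. On its brightest probe set, 209774_x_at, it read 3.77, 4.45 and 3.94 in vehicle and 6.63, 6.87 and 6.58 at 90 min. Levels were 5.87, 6.17 and 6.36 at 4 h, and 4.72, 4.68 and 4.58 at 24 h. The groups did not overlap, the 90 min arrays were the highest, and the 24 h arrays lay just above the highest vehicle array. CXCL2 rose by 2.64 ± 0.19 at 90 min (6.23-fold; adjusted p = 4.1e-06) and by 2.08 at 4 h (4.24-fold; adjusted p = 9.72e-06), from a vehicle level near 4. The step from 90 min to 4 h was -0.56 (adjusted p = 0.0964), and by 24 h the level had fallen by 1.47 from that at 4 h (2.78-fold; adjusted p = 8.83e-05).

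At 24 h CXCL2 was 0.61 above vehicle (1.53-fold; adjusted p = 0.0255), and this call did not hold in every fit. It was lost without vehicle replicate 1 (0.47, adjusted p = 0.111), vehicle replicate 3 (0.55, adjusted p = 0.0880), 24 h replicate 1 (0.58, adjusted p = 0.0687) or 24 h replicate 2 (0.60, adjusted p = 0.0626). The other CXCL2 probe sets, 1569203_at and 230101_at, read 2.65 to 3.08 and 2.51 to 2.66, under 4 on every array. Since CXCL1, CXCL2 and CXCL3 are closely related in sequence, and the suffix of the bright probe set marks probes that may match other transcripts, its signal may hold some from the related genes. Averaging all 3 CXCL2 probe sets lowered the 90 min difference to 0.96, with the call kept.

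**Figure D2:**
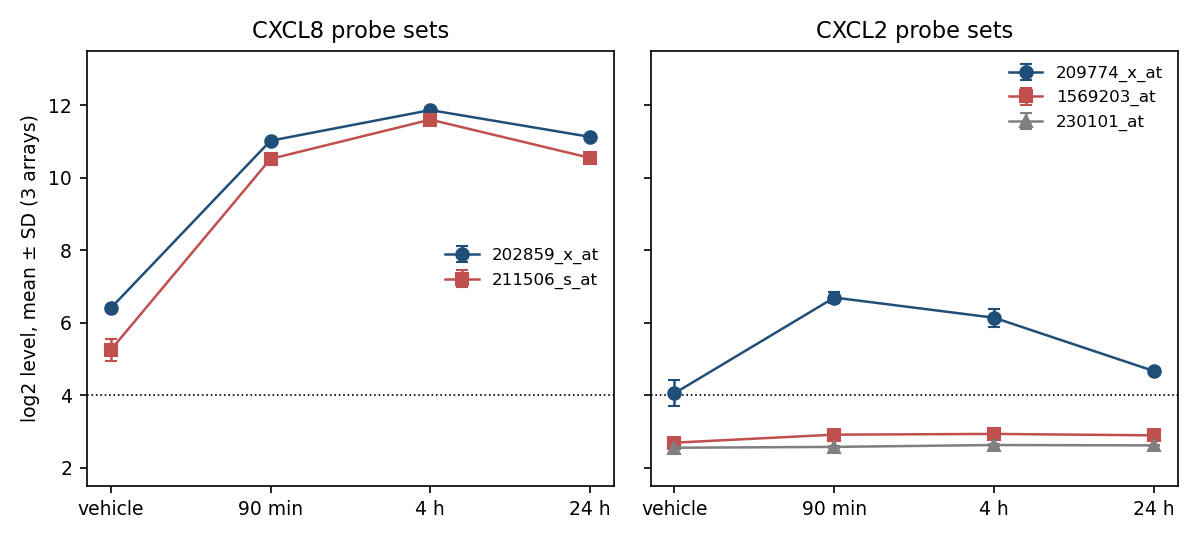
Mean ± SD log2 level (vertical axis; n = 3) of each probe set listed with CXCL8 alone or CXCL2 alone, by group (horizontal axis); the dotted line marks a level of 4. Both CXCL8 probe sets are highest at 4 h, while of the 3 CXCL2 probe sets only 209774_x_at rises above 4.

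CXCL1 and CXCL3, which share the kB-like letters and most of the promoter window with CXCL2, stayed at low signal. CXCL1 read 2.48 to 2.52 in vehicle and 2.48 to 2.68 in the JS-K groups, and CXCL3 read 2.68 to 2.81 in vehicle and 2.75 to 3.01. The lymphocyte and dendritic cell attractant CCL20, a ligand of CCR6, read 2.24 to 2.28 in vehicle and 2.23 to 2.42. For each of the 3 genes the highest array was 4 h replicate 2, the array with the highest median. At 4 h CXCL1 and CCL20 were called higher by 0.10 (adjusted p = 0.0480) and 0.09 (adjusted p = 0.0407), while CXCL3 was 0.14 above vehicle (adjusted p = 0.0574). Over the same arrays the unspiked trp probe sets moved from 2.53 to 2.66, and both calls were lost without vehicle replicate 1, 2 or 3 or 4 h replicate 2, after quantile normalization and after subtraction of array medians. Values under 4 in all groups say nothing about the size of a change in these transcripts.

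CXCL16 is made as a membrane-anchored chemokine that binds CXCR6 and scavenges oxidized lipoprotein. It read 2.24, 2.26 and 2.32 in vehicle, 2.31 to 2.46 at 90 min and 2.46 to 2.50 at 4 h. At 24 h the arrays read 4.41, 3.82 and 3.80. The difference from vehicle was 0.12 at 90 min (adjusted p = 0.885) and 0.21 at 4 h (adjusted p = 0.154), and at 24 h the level rose by 1.74 ± 0.12 (3.34-fold; adjusted p = 2.33e-07). All 4 h arrays lay above all vehicle arrays, and the 4 h difference was called when only the 6 arrays compared were fitted (adjusted p = 0.00429) and with array weights (0.15; adjusted p = 0.0354). It was also 1.52 above the 4 h level (adjusted p = 1.79e-06), and the 24 h arrays lay apart from all the others. Only 1 of the 12 arrays read above 4, so these values are near or within low signal.

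CCL2, the monocyte chemoattractant also known as MCP-1, was the only measured member whose rise was called at every step. It read 8.29, 8.41 and 8.43 in vehicle and 10.21, 10.08 and 10.10 at 90 min. At 4 h the levels were 10.64, 10.55 and 10.43, and at 24 h 12.65, 12.69 and 12.57. The 4 groups did not overlap, in the order vehicle, 90 min, 4 h and 24 h. The difference from vehicle was 1.75 ± 0.07 at 90 min (3.36-fold; adjusted p = 2.42e-08), 2.16 at 4 h (4.48-fold; adjusted p = 1.64e-09) and 4.26 at 24 h (19.2-fold; adjusted p = 2.09e-12).

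The steps of CCL2 were unequal. From 90 min to 4 h the rise was 0.41 (1.33-fold; adjusted p = 0.00242), and it did not pass a test against a 1.5-fold change. From 4 h to 24 h it was 2.10 (4.27-fold; adjusted p = 2.7e-09). CXCL8 fell over that same interval, by 0.74. CCL2 and CXCL8 are compared here by their changes, since levels of different probe sets are not on a common scale.

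CCL4, or MIP-1 beta, which attracts monocytes and lymphocytes, read 1.97 to 2.06 on all vehicle, 90 min and 4 h arrays. At 24 h its arrays read 3.02, 4.00 and 2.17, a spread of 0.91 (SD) that no other member showed. All 3 lay above the other groups, but every group mean was under 4. The 24 h level was 1.08 ± 0.31 above vehicle (adjusted p = 0.0143) and 1.04 above that at 4 h (adjusted p = 0.0258). Without 24 h replicate 2, the highest array, the first of these was 0.618, and it was not called when only the 6 arrays compared were fitted (adjusted p = 0.0530) or against a 1.5-fold change (adjusted p = 0.403). The second of these calls was lost without 24 h replicate 1 (1.06, adjusted p = 0.0585) or without 4 h replicate 1 (1.03, adjusted p = 0.0593), 2 (1.05, adjusted p = 0.0672) or 3 (1.03, adjusted p = 0.0700).

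The probe set 205114_s_at, listed with CCL3, CCL3L1 and CCL3L3, cannot assign its signal among these near-identical genes. CCL3 is MIP-1 alpha, a ligand of CCR1. The probe set read 3.93, 4.00 and 4.55 in vehicle and 4.23, 3.94 and 4.42 at 90 min, groups that overlapped. It read 7.30, 7.36 and 7.32 at 4 h, and 9.61, 9.55 and 9.42 at 24 h. In a fit over all 54675 probe sets its difference from vehicle was 0.03 at 90 min (95% interval -0.34 to 0.41; adjusted p = 0.962), 3.16 ± 0.17 at 4 h (8.96-fold; adjusted p = 3.54e-07) and 5.36 at 24 h (41.2-fold; adjusted p = 1.41e-09). From 90 min to 4 h it rose by 3.13, whereas CXCL8, CXCL2 and CCL2 were already called at 90 min. In that fit 14.1% of probe sets were called higher at 4 h and 12.7% at 24 h.

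**Figure D3:**
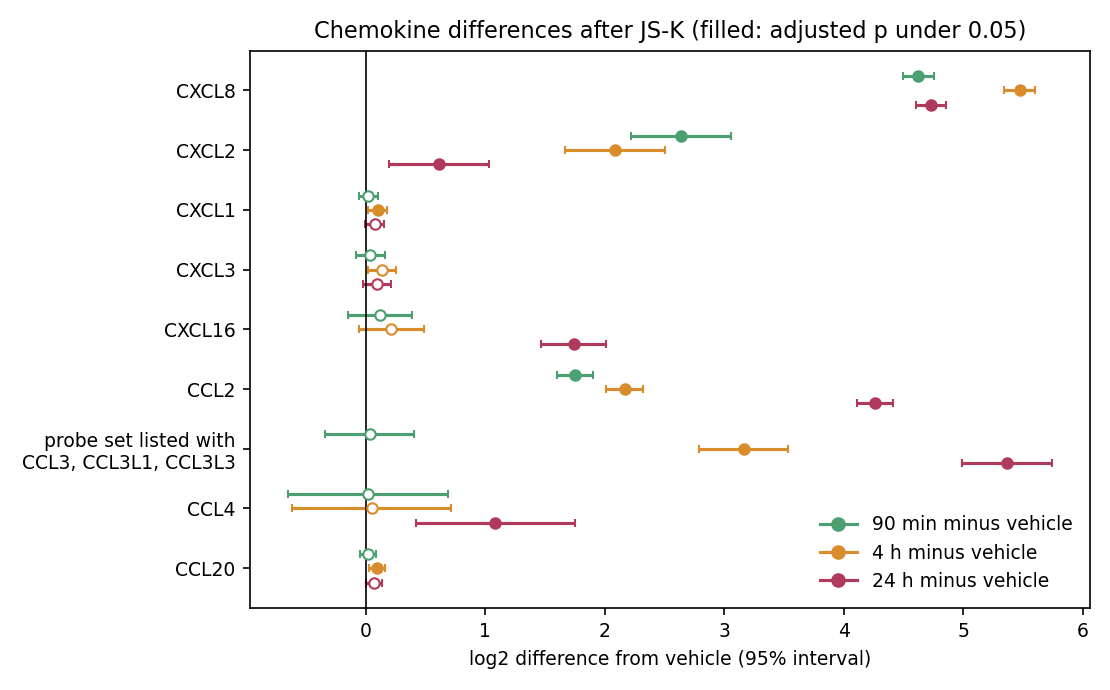
Log2 difference from vehicle (horizontal axis) at 90 min, 4 h and 24 h for each chemokine (vertical axis), with 95% intervals from the limma fit. Filled points had an adjusted p under 0.05. CXCL8 lies between 4.62 and 5.47 at all times, CCL2 goes from 1.75 to 4.26, and CXCL2 goes from 2.64 to 0.61.

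Counted together, 3 of the 8 measured chemokines rose at 90 min (CXCL8, CXCL2 and CCL2), where 4.03% of all genes were called higher. None was called lower in limma's test, nor at an unadjusted p under 0.05. Of all genes, 5.62% were called lower. At 4 h 5 were called higher against 23.9% of all genes, and 3 of these reached a group mean of 4. Without vehicle replicate 1, 2 or 3 or 4 h replicate 2 the count was 3. The background itself depended on scaling: at 4 h 4735 genes were called higher and 3286 lower, but 849 and 3120 after subtraction of array medians, which moved the median of all genes by -0.10. At 24 h 5 were called higher against 17.8%, of which 4 reached a group mean of 4. Without 4 h replicate 2, an array outside that comparison but in the shared fit, all 8 were called at 24 h, in a fit that called 52% of all genes higher. Neither time had a member called lower by limma, also at an unadjusted p under 0.05. Of all genes, 16.6% were called lower at 4 h and 18.9% at 24 h.

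Between JS-K times, CXCL8 and CCL2 rose from 90 min to 4 h, 2 of 8 against 3.33% of all genes. None was called lower by limma in that step, 1 at an unadjusted p under 0.05 (CXCL2), and 7.25% of all genes were called lower. From 4 h to 24 h 3 rose (CXCL16, CCL2 and CCL4; 12.8% of all genes) and 2 fell (CXCL8 and CXCL2; 10.7%). From 90 min to 24 h 3 rose (CXCL16 by 1.62, CCL2 by 2.51 and CCL4 by 1.07; 14.6% of all genes), and CXCL2 fell by 2.03 (15.7%). CCL4 dropped out of that count without 90 min replicate 3 (1.06, adjusted p = 0.0524), and CXCL1 and CCL20 joined it without 4 h replicate 2, which made 5, in a fit that called 40.8% of all genes higher. The comparisons with vehicle share their vehicle arrays. The median difference of the 8 genes from vehicle was 0.08 at 90 min, 0.18 at 4 h and 0.85 at 24 h, beside 0.01, 0.06 and 0.06 over all genes.

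Of the other chemokine ligands, 39 were listed and 31 measured, and 4 reached a group mean of 4. None was called at 90 min, with 1 lower at an unadjusted p under 0.05. At that time 4.03% of all genes were called higher and 5.62% lower. At 4 h 12 were called higher, against 23.9% of all genes, but 11 of them stayed under 4, and the count was 5 without 4 h replicate 2 and 0 after quantile normalization or subtraction of array medians. At 24 h 5 were called higher, against 17.8% of all genes, 2 of them reaching 4, with 3 called after either scaling. Without 4 h replicate 2 the count was 26, where 52% of all genes were called higher. The median difference of the 31 ligands was 0.02, 0.10 and 0.09 at the 3 times, beside 0.01, 0.06 and 0.06 over all genes. Of the 4 ligands with a group mean of 4, CCL7 and CCL26 were called, while CCL5 and CCL23, named after their values were seen, were not. CCL5 averaged 10.39 in vehicle, 9.95 at 90 min, 10.14 at 4 h and 10.51 at 24 h. It was the ligand lower at an unadjusted p under 0.05 at 90 min (-0.45; adjusted p = 0.0762, limma). CCL23 averaged 8.50, 8.71, 8.60 and 8.51 over the groups in that order. CCL7, a monocyte chemoattractant whose gene is next to CCL2 on chromosome 17 in RefSeq, read 2.80 to 3.19 on all vehicle, 90 min and 4 h arrays and 6.22, 5.49 and 4.58 at 24 h, a rise of 2.58 ± 0.29 (5.98-fold; adjusted p = 1.15e-05). At 90 min, when CCL2 had risen, its difference from vehicle was 0.07 (adjusted p = 0.943). CCL26, an eosinophil attractant, read 3.32 to 3.40 in vehicle and 5.22, 5.36 and 4.78 at 24 h, a rise of 1.77 (adjusted p = 0.000443). CXCL6, the neighbour of CXCL8 on chromosome 4, averaged 2.56, 2.61, 2.95 and 2.75 over the groups, under 4 throughout. CCL11, next to CCL7, averaged 2.48 in vehicle and 2.80 at 24 h.

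Among 23 listed chemokine receptors 21 were measured, and 5 reached a group mean of 4. Called higher and lower were 3 and 0 at 90 min (1 lower at an unadjusted p under 0.05), 6 and 2 at 4 h, and 3 and 1 at 24 h. The higher counts at 4 h and 24 h are near the 23.9% and 17.8% of all genes called higher. That share was 4.03% at 90 min, and 5.62%, 16.6% and 18.9% of all genes were called lower at these times in order. Without 4 h replicate 2 the 24 h counts were 15 and 1, and after subtraction of array medians the 4 h counts were 1 and 1. Their median difference was 0.01, 0.08 and 0.07. CCR1, a receptor for CCL3 and CCL7, read 6.46, 6.21 and 6.59 in vehicle, 7.93 to 8.21 at 90 min, 8.03 to 8.33 at 4 h and 8.83 to 9.08 at 24 h. It rose by 1.67 at 90 min (adjusted p = 6.09e-06), 1.80 at 4 h (adjusted p = 1.12e-06) and 2.54 at 24 h (5.83-fold; adjusted p = 1.07e-08). CCRL2, an atypical receptor that binds chemerin, averaged 4.45 in vehicle and 7.46 at 24 h, a rise of 3.02 (adjusted p = 4.83e-05). CX3CR1, the fractalkine receptor, went down and then up: it averaged 7.53 in vehicle, 6.94 at 90 min, 5.89 at 4 h and 8.24 at 24 h. Its fall at 4 h was called (-1.64, adjusted p = 5.42e-05), as was the later level above vehicle (0.71, adjusted p = 0.00962; 0.61 and 0.0527 after subtraction of array medians). Over the alternatives the 4 h difference of CX3CR1 lay between -1.75 and -0.78, with the call kept. CXCR2, the receptor of CXCL8 and CXCL2, averaged 7.34, 7.68, 6.96 and 7.46, and its 4 h difference of -0.38 (adjusted p = 0.0484) was lost without vehicle replicate 1 (-0.40, adjusted p = 0.117) and in several other fits.

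The 12 listed AP-1 and C/EBP factors, DNA-binding proteins of immediate early responses, were all measured. Called higher and lower were 7 and 0 at 90 min (1 lower at an unadjusted p under 0.05), 6 and 2 at 4 h, and 6 and 2 at 24 h. Of all genes 4.03%, 23.9% and 17.8% were called higher and 5.62%, 16.6% and 18.9% lower at these times. The factors' median difference was 0.83, 0.37 and 0.25, beside the same 0.01, 0.06 and 0.06 over all genes. JUN, an AP-1 subunit, read 8.10, 7.76 and 7.85 in vehicle and 11.41, 11.27 and 11.18 at 90 min, a rise of 3.38 (10.4-fold; adjusted p = 3.71e-10), and was 3.08 and 3.14 above vehicle at 4 h and 24 h. FOS, its partner, averaged 5.27 in vehicle and 8.56 at 90 min (3.29; adjusted p = 7.33e-05), and from there it fell by 2.07 to 4 h (adjusted p = 0.00181). ATF3, a stress-induced factor, averaged 3.10 in vehicle, 6.33 at 90 min, 7.03 at 4 h and 8.08 at 24 h, and FOSL2 averaged 6.81, 8.87, 9.02 and 9.59. The size of the ATF3 difference from vehicle depended on the fit. Over the alternatives it lay between 1.27 and 3.38 at 90 min and between 1.52 and 4.38 at 4 h, with the calls kept. By group mean FOS and JUN, like CXCL2, were highest at 90 min, while ATF3 and FOSL2, like CCL2, were highest at 24 h. The likeness is of the highest group only: at 24 h JUN was still 3.14 above vehicle, and CXCL2 was 0.61 above. Whether these factors act on the chemokine genes was not tested.

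Of the NF-kB subunits, kinases and inhibitors 17 were listed and 16 measured. Called higher and lower were 1 and 1 at 90 min, 7 and 2 at 4 h, and 10 and 1 at 24 h, the last count being 13 and 1 after quantile normalization and 7 and 1 after subtraction of array medians. Of all genes 4.03%, 23.9% and 17.8% were called higher and 5.62%, 16.6% and 18.9% lower. The median difference was 0.07, 0.31 and 0.55. REL, a subunit named after its values were seen, was the one called lower at 90 min and at 24 h (-0.55 and -0.59). The other subunits, also named after their values were seen, did not fall with it. RELA was called higher at 4 h (0.39; adjusted p = 0.0173) and at 24 h (1.04; adjusted p = 4.24e-06). RELB was called higher at 24 h (0.92; adjusted p = 0.0161), with group means under 4. NFKB1 and NFKB2 were not called against vehicle at any time. NFKBIZ, which encodes an NF-kB cofactor, was the one called higher at 90 min, by 1.12 (adjusted p = 0.00263). NFKBIA, the inhibitor IkB alpha, read 8.02, 7.83 and 7.85 in vehicle, 8.76, 8.15 and 8.27 at 90 min, 9.43, 8.99 and 9.46 at 4 h, and 9.04, 9.21 and 8.87 at 24 h. Its difference was 0.49 at 90 min (adjusted p = 0.0937; 0.0300 after quantile normalization), and it rose by 1.39 at 4 h (adjusted p = 6.97e-05) and 1.14 at 24 h. CYLD, a deubiquitinase that restrains the pathway, was -0.01 from vehicle at 90 min and rose by 2.18 by 24 h (adjusted p = 4.95e-06). NFKBID, an atypical IkB protein gene, rose by 1.31 at 4 h.

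Several chemokine mRNAs carry AU-rich elements that speed their decay. Of 8 listed regulators of AU-rich and stem-loop mRNA decay 7 were measured, and called higher and lower were 1 and 2 at 90 min, 1 and 3 at 4 h, and 2 and 5 at 24 h, with a median difference of 0.02, 0.10 and -0.20. Of all genes 4.03%, 23.9% and 17.8% were called higher, and 5.62%, 16.6% and 18.9% lower. ZFP36, or tristetraprolin, which promotes decay, read 6.19, 6.22 and 6.47 in vehicle, 7.82 to 7.96 at 90 min, 8.06 to 8.59 at 4 h and 8.71 to 8.98 at 24 h. It rose by 1.60, 2.07 and 2.56 in that order (adjusted p = 1.53e-05, 6.3e-07 and 1.87e-08). Its relative ZFP36L2 fell, by 0.72 at 4 h and 0.86 at 24 h, from a vehicle mean of 12.87, and KHSRP, another decay factor, fell by 0.63 at 24 h. ZFP36L1 rose by 1.10 at 24 h from a level under 4. Of 3 proteases of chemokines, all measured, ADAM10, which sheds CXCL16 from the membrane, averaged 11.47 in vehicle and 11.61 at 24 h, a difference of 0.14. Its 4 h difference of -0.21 (adjusted p = 0.0350) was the only call of that list against vehicle and was lost in several fits, for example without vehicle replicate 1 (adjusted p = 0.0775).

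**Figure D4:**
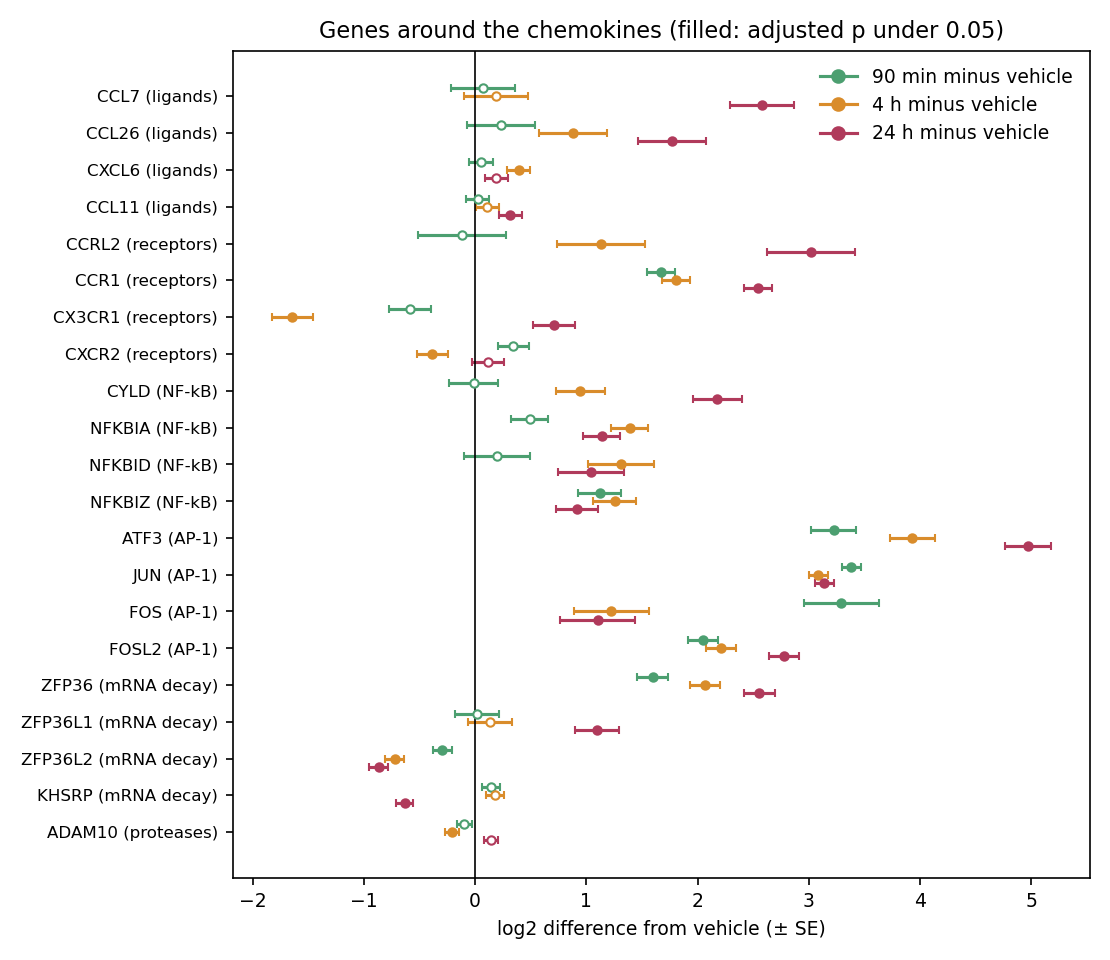
Log2 difference from vehicle (horizontal axis, ± SE of the limma fit) at 90 min, 4 h and 24 h for the named ligands, receptors, NF-kB genes, AP-1 factors, mRNA decay regulators and protease (vertical axis). Filled points had an adjusted p under 0.05. ATF3, JUN and FOS lie above 3 at 90 min, and CCL7, CCRL2 and CYLD are above 2 only at 24 h.

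CXCL8, CXCL2 and CCL2 had a group mean of at least 6 and group means spanning at least 1. The genes whose levels ran most like each of these were sought among 2716 genes with a mean of at least 4 and group means spanning at least 1, by Pearson's r over the 12 arrays. These r values are descriptions over arrays that fall into 4 groups. For CXCL8 they were TBXAS1, thromboxane synthase (r = 0.994), KLF6, a zinc finger factor (0.989), and GPR183, an oxysterol receptor (0.989). All 3 were up at 90 min and highest at 4 h, as CXCL8 was, a likeness that they were picked for. KLF6 averaged 8.90, 11.30, 11.34 and 11.30 over vehicle, 90 min, 4 h and 24 h, nearly level over the JS-K times. For CXCL2 they were EGR3, an immediate early factor (0.973), CD36, a scavenger receptor (0.965), and HP, haptoglobin (0.95). EGR3 averaged 3.09, 6.49, 5.44 and 3.67. For CCL2 they were CNIH3 (0.994), LPXN, the adhesion adaptor leupaxin (0.993), and CLEC5A, a myeloid C-type lectin receptor (0.993). CLEC5A averaged 9.60, 10.36, 10.80 and 11.90. No gene was shared among the 3 chemokines. The genes were picked by r to chemokines with different courses, so this is no separate result.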

How the data were processed

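RNA of 12 samples was measured on arrays. The authors deposited 1 log2 value per probe set and array, made with GCRMA in Affymetrix Expression Console, per the submitters' processing notes; versions are not given in the sources used here. GCRMA corrects background from probe sequence, normalizes quantiles and summarizes probes, so low levels are compressed. Per the labels' protocols, 200 ng of RNA was labelled with a whole-transcript kit. The values were used without further normalization.

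Of 54675 probe sets, 41097 were listed with 1 symbol, 1801 with several and 11777 with none, and the brightest of each gene gave 19775 genes, with no filter on level. Differences came from limma 3.58.1 (R 4.3.3), with lmFit, contrasts.fit and eBayes with trend on all 12 arrays, for 6 comparisons, with Benjamini-Hochberg adjustment over all genes and calls at an adjusted p under 0.05. The fit had 8 residual degrees of freedom. It was tested on simulated data. Same-numbered vehicle and 90 min arrays deviated together (r = 0.218, 0.229 and 0.128), a pairing seen in the data and not stated in the labels. Those of 90 min and 4 h had r of 0.048, 0.369 and 0.304, and no other 2 groups had a positive r for all 3 numbers. Of 36 pairs with different numbers, 5 exceeded 0.1. The chemokines and the gene lists were chosen with earlier results of these data known. All chemokines were named, and of each list up to 4 called genes with the largest change from vehicle. COL1A1, the 3 myeloid markers under 4, CCL5, CCL23, REL, RELA, RELB, NFKB1, NFKB2 and the further probe sets of the chemokines were named beyond that rule. Listed genes with no probe set of their own were not analysed here.

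Alternatives were a constant spread, the dimmest of 3 equal parts of genes left out, quantile normalization, array medians subtracted, array weights, a replicate block, the mean of probe sets, every probe set, the 6 arrays compared alone, a test against a fold of 1.5 and each array left out. A fit restricted to genes that averaged 4 or more, fits without 4 h replicate 2 where a comparison does not use it, and the repeats for list genes and the shared probe set were added after seeing the data.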

Additional observations from a re-analysis of the deposited data

Results flagged for a closer look

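Several chemokines differed between JS-K times, by a test of the difference itself in the limma fit. The vehicle level does not enter these differences, and no vehicle group was matched to each time. Time in culture and JS-K cannot be told apart in them. CXCL8 rose by 0.85 from 90 min to 4 h, and its 24 h level minus its 4 h level was -0.74. CXCL2 differed by -1.47 between 24 h and 4 h and by -2.03 between 24 h and 90 min. CXCL16 differed by 1.52 and 1.62 in the same comparisons, CCL2 by 2.10 and 2.51, and CCL4 by 1.04 and 1.07 with all its group means under 4. CCL2 also differed by 0.41 between 4 h and 90 min. Each was higher or lower on all 3 arrays of one group against all 3 of the other. Such separation adds little, since uncalled differences showed it too, as for CXCL1 and CXCL3 between 90 min and 4 h. Its share over all genes was not counted.

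Outside the main measurement, the poly-A spikes averaged 7.02 at 4 h and 8.47 at 24 h, above the 3.04 of the vehicle arrays. Their part in the 4 h and 24 h results was not tested, and handling and time cannot be told apart there.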

How the results depend on the processing

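The calls of CXCL8 and CCL2 against vehicle at all times, of CXCL2 at 90 min and 4 h and of CXCL16 at 24 h held in every alternative that tested them (CXCL16 is too dim for the fit restricted to brighter genes), with differences of 4.59 to 4.95, 5.36 to 5.91 and 4.63 to 5.02 for CXCL8 at 90 min, 4 h and 24 h. The number of chemokines called higher at 90 min went from 3 to 5 with array weights. At 4 h it went from 5 to 3 with a constant spread, without the dimmest genes, after quantile normalization, after subtraction of array medians, against a fold of 1.5 and among genes with a mean of at least 4, and to between 3 and 6 with an array left out. At 24 h it went from 5 to 8 with array weights, to 3 against a fold of 1.5 and among genes with a mean of at least 4, and to between 4 and 8 with an array left out. From 90 min to 4 h the 2 higher became 4 with array weights and 0 against a fold of 1.5, and the 0 lower became 1 (CXCL2) with array weights and among genes with a mean of at least 4. From 4 h to 24 h the 3 higher became 1 among genes with a mean of at least 4, and the 2 lower became 1 against a fold of 1.5. From 90 min to 24 h the 3 higher became 5 with array weights and 1 among genes with a mean of at least 4, and between 2 and 5 with an array left out. The cause was not tested beyond the fewer genes or arrays in a fit. CCL4, uncalled at 4 h, turned to -0.0561 against vehicle and -0.0629 against 90 min after subtraction of array medians, and to -0.00379 against 90 min after quantile normalization. The uncalled 90 min difference of the probe set shared by CCL3 and its copies lay between -0.0812 and 0.23 with an array left out. Same-numbered arrays deviated with r of -0.13 to 0.37 over 18 pairs, of which 7 exceeded 0.1, among them all 3 of vehicle and 90 min. The replicate block gave 3, 6 and 5 chemokines higher against vehicle at 90 min, 4 h and 24 h, with no change in the other counts, and ended 1 call of a list gene, ZFP36L2 at 90 min (-0.29, adjusted p = 0.0531). Levels under 4 limit what CXCL1, CXCL3, CCL4 and CCL20 can show, and 3 arrays a group limit the precision.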
